A study of Mus musculus with 12 samples.

Results

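FoxP3 ChIP-seq peaks were described at the loci of 5 genes that encode surface molecules of regulatory T (Treg) cells: Nrp1, Entpd1, Lrrc32, Itgae and Tigit. A peak belonged to a locus when its summit lay in a fixed mm9 window: chr8:130800000-131150000 for Nrp1, chr19:40600000-40900000 for Entpd1, chr7:105600000-105680000 for Lrrc32, chr11:72880000-72990000 for Itgae and chr16:43620000-43690000 for Tigit. The 5 windows held 69 of the 53228 peaks on the standard chromosomes. Where peaks from more than 1 library shared at least 1 bp they were merged, which gave 30 regions in the windows of 24765 regions in all. Regions are numbered within each locus in the order of their mm9 start.

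The cells came from C57BL/6J mice of the genotypes FoxP3WT:hCD2 and FoxP3A384T:hCD2, and both genotypes carry hCD2, the human CD2 surface marker by which the cells were sorted. CD4(+)hCD2(+) Treg cells were taken from lymph nodes and spleen, were freshly isolated and received no treatment. The antibody against FoxP3 was a rabbit polyclonal made in house, and each genotype had 3 ChIP libraries with 1 peak list each. Age, sex and whether the 3 libraries of a genotype came from separate animals are not given in the sources used here, so the p-values below speak only of variation among these libraries, and that variation may be technical. Peak lists hold no expression values, so the sorted cell type was not checked against marker genes.

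FoxP3 is the forkhead transcription factor that specifies the Treg lineage. A384T replaces an alanine of its forkhead DNA-binding domain with threonine and is known from patients with IPEX, an inherited autoimmune disease of Treg failure. Nrp1 (neuropilin-1) is a semaphorin and growth factor co-receptor that stabilises Treg cells in contact with their targets. Entpd1 (CD39) is the ectoenzyme that degrades extracellular ATP, the first step towards immunosuppressive adenosine. Lrrc32 (GARP) holds latent TGF-beta on the Treg surface. Itgae (CD103) is the integrin alpha chain that binds E-cadherin on epithelium. Tigit is an inhibitory receptor for the poliovirus receptor CD155.

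The promoter sequences of Tigit and Nrp1 are shown because these were the loci with a FoxP3 region in all 6 libraries, and because the pair differ in forkhead-like letters. Each is the 250 bases before the RefSeq transcript start, written 5′ to 3′ in the direction of the gene, from build GRCm38.p6. The table of promoters had entries for Nrp1, Entpd1 and Tigit. Capitals mark matches to the forkhead core TGTTT or its reverse complement AAACA.
Tigit, minus strand of chr16:43664185-43664434: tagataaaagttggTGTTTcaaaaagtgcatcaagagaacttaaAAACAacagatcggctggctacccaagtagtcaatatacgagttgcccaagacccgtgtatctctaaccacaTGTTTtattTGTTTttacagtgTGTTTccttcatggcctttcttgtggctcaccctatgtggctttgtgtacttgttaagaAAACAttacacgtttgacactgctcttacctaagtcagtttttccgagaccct
Nrp1, plus strand of chr8:128358823-128359072: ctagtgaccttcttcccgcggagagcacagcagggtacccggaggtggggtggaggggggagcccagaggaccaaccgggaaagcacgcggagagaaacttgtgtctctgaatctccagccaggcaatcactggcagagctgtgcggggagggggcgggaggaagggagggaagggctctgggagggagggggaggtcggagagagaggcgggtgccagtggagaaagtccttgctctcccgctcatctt
The Tigit window held 6 matches, beginning 236, 206, 134, 125, 112 and 53 bases before the start, and the Nrp1 window held none. The Entpd1 windows, at 62.4% and 47.2% G or C and not shown, held 0 each. Of 32851 promoter windows of this length, 46.4% held at least 1 match and 0.399% held 6 or more. Base composition differed: the Tigit window was 40.0% G or C and the Nrp1 window 64.4%, and among the 6389 windows between 35 and 45% the share with 6 or more was 1.24%. Neither the Tigit nor the Nrp1 window held the longer forkhead motif TGTTTAC or its reverse complement GTAAACA, which 3.17% of windows held. These coordinates are of GRCm38.p6 and the peaks are of mm9, so the numbers of one cannot be set against the other. Where the peaks lie relative to exons, introns and promoters was not analysed here.

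The lists differed in length more than in sequencing depth. The lists of WT replicates 1, 2 and 3 were 20723, 1746 and 3905 peaks long, and those of the A384T replicates 18147, 6657 and 2050. The ChIP libraries held 17520951 to 25386770 tags after removal of duplicates, and replicate 1 of both genotypes, with the longest lists, held the fewest. Replicate 1 also stood apart in tag length, with 51 bp against 49 bp in the 4 others. Of the 30 regions, 19 (63.3%) were seen only in replicate 1 libraries, against 71.1% of all regions. Results are therefore given per library, with and without replicate 1 where it matters. Absence from a list means that the authors' q-value cutoff of 1e-10 was not passed, and does not show that FoxP3 was unbound there.

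Peaks occurred at all 5 loci in replicate 1 of both genotypes, and at Nrp1 and Tigit in every library. Together the windows held 28, 2 and 6 peaks for WT (replicates 1, 2 and 3) against 20, 10 and 3 for A384T. As a share of each list this was 0.135%, 0.115% and 0.154% in WT and 0.110%, 0.150% and 0.146% in A384T, with means of 0.134% ± 0.0196 and 0.136% ± 0.0221 (SD, n = 3 each). The genotypes overlapped. Their means differed by 0.00115 percentage points, less than either SD.

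No single locus separated the genotypes by its share of peaks. Nrp1 took 0.0875% ± 0.0365 of WT lists and 0.0828% ± 0.0195 of A384T lists (SD, n = 3 each; exact two-sided permutation p = 1.0). Tigit took 0.0325% ± 0.0222 and 0.0231% ± 0.0227 (exact p = 0.6), and Entpd1 took 0.0113% ± 0.0195 and 0.0210% ± 0.0183 (exact p = 1.0). Itgae took 0.00161% ± 0.00279 and 0.00684% ± 0.00760 (exact p = 0.4), and Lrrc32 took 0.00161% ± 0.00279 and 0.00184% ± 0.00318 (exact p = 1.0). With 3 libraries against 3 the smallest p that this test allows is 0.1, so no locus could pass 0.05. The groups overlapped at every locus. At Entpd1, Lrrc32 and Itgae both genotypes had lists without a peak, which fixes an overlap whatever the other lists hold. Over the genome, windows of the same width that held a peak had genotypes that did not overlap in 6.27% of cases for the Nrp1 width, 6.05% for Entpd1, 3.83% for Lrrc32, 4.48% for Itgae and 3.58% for Tigit.

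**Figure D1:**
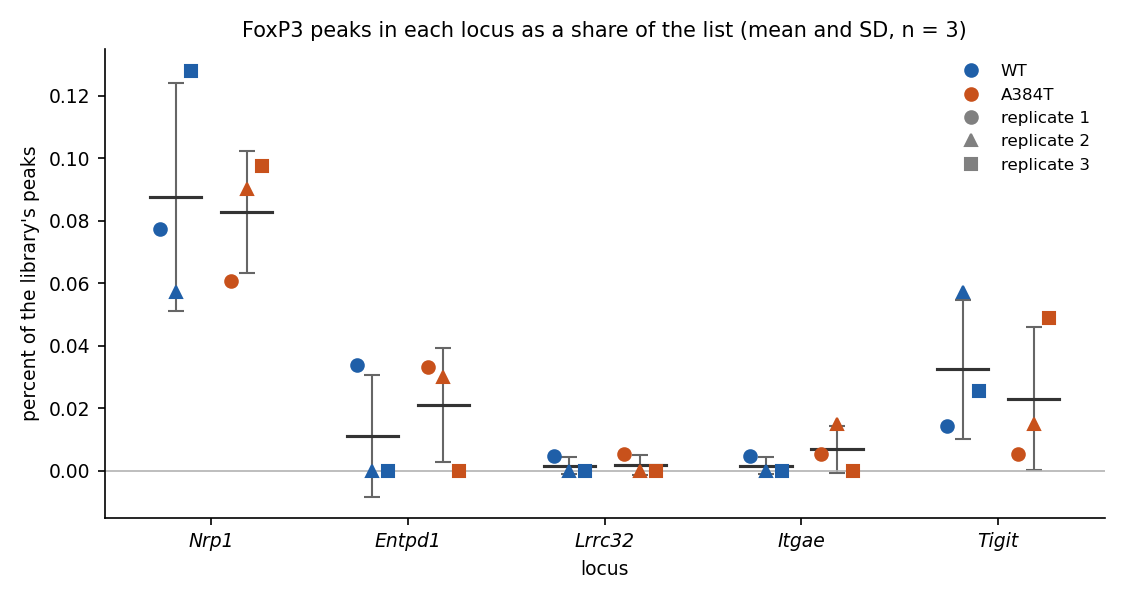
The percent of each library's peaks that lay in a locus (y axis) is plotted for the 5 loci (x axis), with WT in blue and A384T in orange, 1 symbol per library and the mean and SD of 3 libraries in grey. The genotypes overlap at every locus, and at Entpd1, Lrrc32 and Itgae most libraries other than replicate 1 sit at 0.

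Few regions recurred in every library. A peak in all 6 libraries was found at 2 of the 30 regions (6.67%), Nrp1 region 15 and Tigit region 3, against 3.88% of all regions. Both genotypes had a peak at 18 regions (60.0% against 56.0% overall). The remaining 12 (40.0% against 42.4% overall) were each in 1 library. Of these, 10 were in WT replicate 1 only (33.3% of the members against 25.6% overall) and 2 in A384T replicate 1 only (6.67% against 16.2%). Regions seen in WT only, in however many libraries, made up 26.8% of all regions and those seen in A384T only 17.2%, so among the members the share of WT was higher and that of A384T lower. With 1 library behind each of the 12, these shares have no replicate check. None of the 30 was present in at least 2 WT libraries and no A384T library, a pattern of 0.872% of all regions. None was present in at least 2 A384T libraries and no WT library, a pattern of 0.763%. No member thus recurred in a single genotype. Leaving out WT replicate 1 left 20 member regions, 5 of them in at least 2 A384T libraries and no WT library, a pattern of 16.5% of all regions under the same omission. The 5 were Itgae region 1, Entpd1 regions 3 and 8, and Nrp1 regions 2 and 8. Leaving out A384T replicate 1 left 28 member regions, 1 of them in at least 2 WT libraries and no A384T library, Nrp1 region 6, against 3.03% of all regions.

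Nrp1 was the locus with the most regions, 16, spread over 193 kb. Of windows of the same width along the genome, 4.04% held as many regions, and the mean was 3.28. The regions fell into 3 groups. Regions 1 to 6 lay between 130882253 and 130915499, followed by 82.3 kb without a peak. Regions 7 to 12 lay between 130997785 and 131030124, and after 29.5 kb regions 13 to 16 lay between 131059638 and 131075606. Presence in the lists ran from 16 regions in WT replicate 1 and 11 in A384T replicate 1 to 6 in A384T replicate 2, 5 in WT replicate 3, 2 in A384T replicate 3 and 1 in WT replicate 2. That order followed the lengths of the lists.

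**Figure D2:**
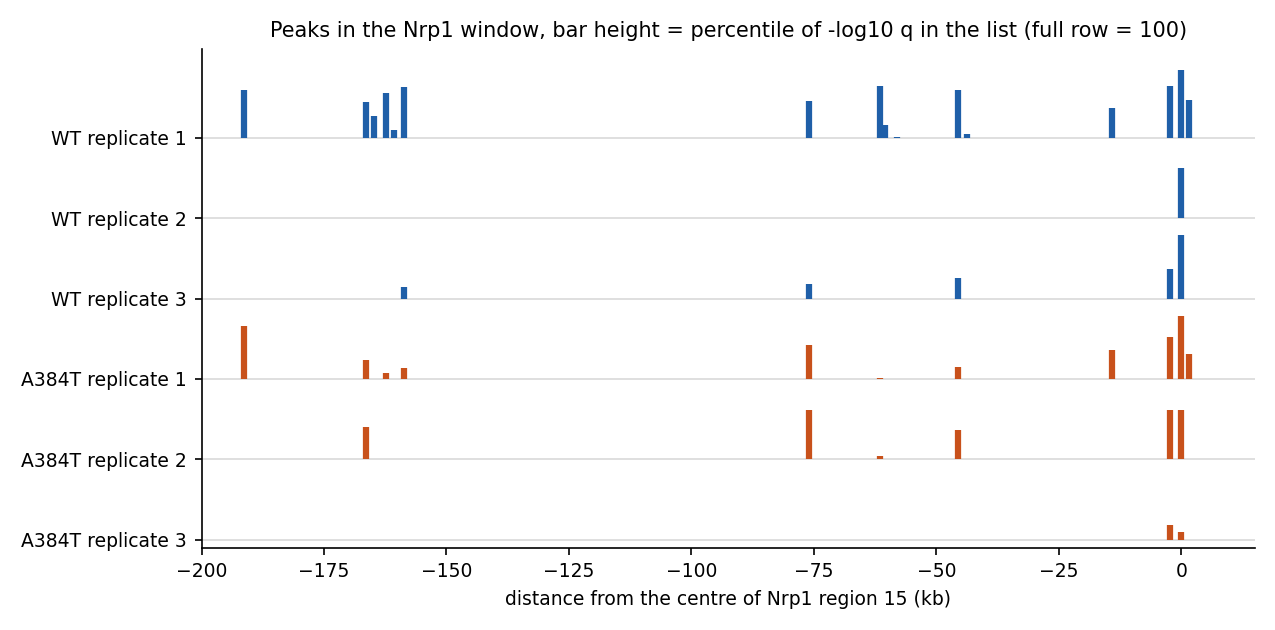
Peaks in the Nrp1 window are drawn as bars in 1 row per library, with distance from the centre of Nrp1 region 15 in kb on the x axis and bar height giving the percentile of the peak's -log10 q in its own list (a full row is 100). The bar at 0 is the 1 region present in every row, and its height falls from 98.8 in WT replicate 1 to 11.9 in A384T replicate 3. Heights depend on the length of the list. Among the regions that both of these lists hold, its ranks were 87.9 and 11.4.

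Nrp1 region 15 (chr8:131073589-131074087) was the region of this locus shared by all libraries, and it stood lower in A384T. The authors' fold enrichment over the local control was 56.8, 15.3 and 24.2 for WT (replicates 1, 2 and 3) against 25.7, 11.4 and 7.05 for A384T. In each numbered pair the A384T value was the lower one, although the groups overlapped. Fold enrichment has no scale shared between lists, so the region was ranked by -log10 q among the 962 regions with a peak in all 6 libraries, where 100 is the strongest. Its rank was 76.0, 58.6 and 74.9 in WT and 39.7, 13.9 and 7.07 in A384T. Every WT library was above every A384T library, with means of 69.8 ± 9.77 and 20.2 ± 17.2 (SD, n = 3 each), a difference of -49.6 points (exact two-sided permutation p = 0.1, the smallest that 3 against 3 allows). The test did not pair libraries by replicate number, and with 3 such pairs the smallest p is 0.25.

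The summit pileup, the tag depth at the peak's highest point, gave the same order of genotypes at Nrp1 region 15. Divided by the library's median over the 962 shared regions, it was 1.04, 0.927 and 1.11 in WT and 0.888, 0.789 and 0.723 in A384T. The means were 1.03 ± 0.0945 and 0.800 ± 0.0828 (SD, n = 3 each; exact two-sided permutation p = 0.1), and the groups did not overlap. Such a separation was common in these data. Ranks did not overlap between genotypes at 24.8% of the 962 shared regions, 128 higher in WT and 111 higher in A384T, and pileups did not overlap at 26.5%. Of the 2 shared regions described here 1 separated the genotypes, a count too small to set against that share. In the whole lists the percentiles were 98.8, 74.0 and 93.2 in WT and 91.6, 72.8 and 11.9 in A384T, which overlapped (exact two-sided permutation p = 0.2). With -log10 q of at least 20 required, or with only the 1746 strongest peaks of each list kept, the region was no longer present in all 6 libraries.

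The summits of Nrp1 region 15 lay within 51 bp of each other over the 6 libraries. The median over the shared regions was 53.0 bp. Its peaks were 468, 346 and 435 bp wide in WT and 418, 434 and 250 bp in A384T, wider in each library than the median of its list, which ran from 180 to 264 bp. The same held for Tigit region 3, so the width was not particular to Nrp1 region 15.

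**Figure D3:**
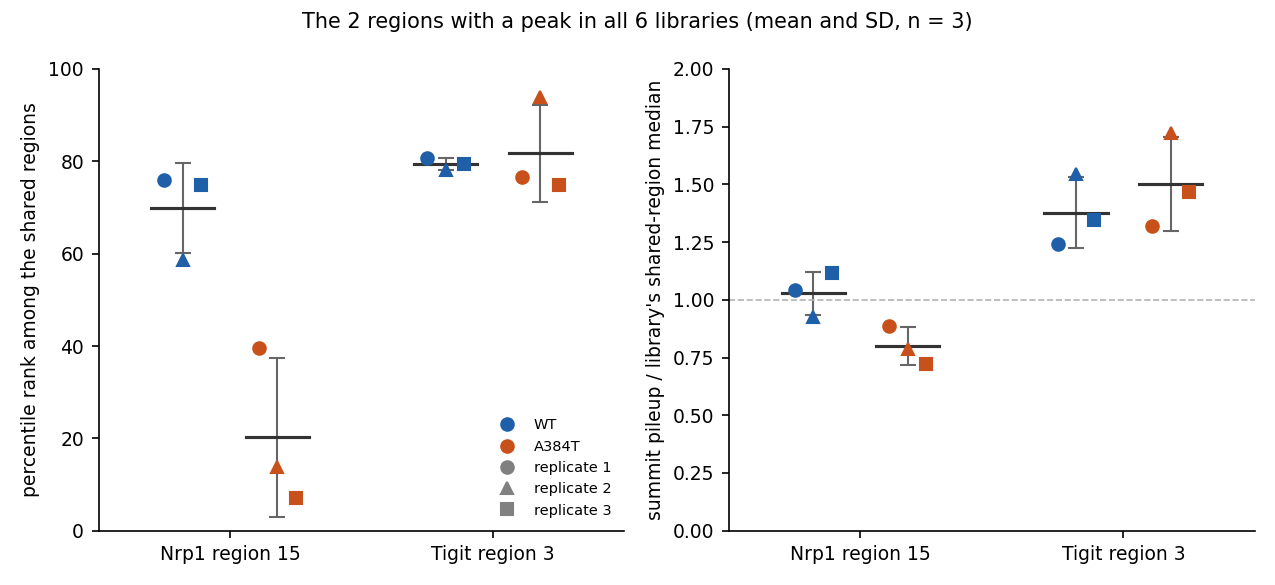
The 2 regions with a peak in all 6 libraries are plotted by their percentile rank among the 962 shared regions (left, y axis) and by summit pileup divided by the library's median over those regions (right, y axis; the dashed line is 1), with 1 symbol per library and the mean and SD of 3 libraries in grey. At Nrp1 region 15 the WT ranks run from 58.6 to 76.0 and the A384T ranks from 7.07 to 39.7, while at Tigit region 3 the genotypes overlap.

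Among the weaker Nrp1 regions, those in 4 or 5 libraries overlapped between genotypes by percentile in the list, a measure that depends on list length. Region 14 (chr8:131071311-131071593), the next region below region 15, was in every list except WT replicate 2. Its percentile was 75.04 in WT replicate 1, 43.3 in WT replicate 3 and 61.7, 72.0 and 21.8 in the A384T replicates, so the genotypes overlapped. Region 7 (chr8:130997785-130998058) stood at 54.2 and 21.7 in WT replicates 1 and 3 and at 50.2 and 72.2 in A384T replicates 1 and 2. Region 11 (chr8:131028044-131028340) stood at 70.2 and 30.3 in the same WT libraries and at 18.1 and 43.0 in the same A384T libraries. Both overlapped between genotypes. Regions 2, 6 and 8, in 3 libraries each, stood higher in the WT lists that held them. Region 8 stood at 75.6 in WT replicate 1 and at 1.34 and 5.06 in A384T replicates 1 and 2. Region 2 stood at 52.8 against 27.1 and 47.6 in the same libraries. Region 6 stood at 73.9 and 17.4 in WT replicates 1 and 3 and at 15.9 in A384T replicate 1. Among regions of both lists, however, A384T replicate 2 ranked region 2 32.7 points above WT replicate 1.

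Between the replicate 1 libraries, which share tag length and have the longest lists, Nrp1 regions mostly ranked lower in A384T. Ranked among the 13567 regions that both lists hold, 8 of the 11 Nrp1 regions were higher in WT, with a median difference of -12.6 points (A384T minus WT), against 50.9% of all regions. A drop of at least 20 points was seen at 4 of the 11, against 21.8% of all regions, and a rise of that size at none, against 22.3%. The 4 were region 8 (-63.3 points), region 6 (-51.2), region 4 (-45.8) and region 11 (-44.8). Region 8 (chr8:131012088-131012453) went from a fold enrichment of 18.7 in WT replicate 1 to 6.66 in A384T replicate 1. The comparison of the replicate 1 lists is 1 library against 1. A384T replicate 2 also held regions 8 and 11 of these 4. Among the regions that it shared with WT replicate 1, region 8 was lower in A384T replicate 2 (-31.0 points, fold enrichment 9.37) and region 11 higher (12.6 points). WT replicate 1 was the only WT list with region 8, so its WT value has no replicate check.

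The direction at Nrp1 depended on the A384T library. Against A384T replicate 1, WT replicate 3 also ranked 4 of 5 Nrp1 regions higher (median -8.49 points, A384T minus WT), against 52.9% of all regions. Against A384T replicate 2, WT replicate 1 ranked 2 of 6 higher, regions 8 and 15, against 51.2% of all regions. Between WT replicate 3 and A384T replicate 2, both of 49 bp tags, 1 of 4 Nrp1 regions ranked higher in WT, against 51.0% of all regions. That 1 was region 15 (-37.6 points, A384T minus WT), while region 7 was higher in A384T by 38.7 points, region 14 by 19.6 and region 11 by 2.60. Against A384T replicate 3, WT replicates 1 and 3 each ranked 1 of 2 Nrp1 regions higher. Over all regions the counts were 962 of 1938 and 718 of 1431. Region 15 was lower in A384T replicate 3 (-76.5 and -72.3 points) and region 14 higher (6.40 and 1.43 points). WT replicate 2 held region 15 alone of the Nrp1 regions and ranked it above each A384T library, with differences of -13.0, -38.3 and -52.1 points for A384T replicates 1, 2 and 3. These pairs share libraries and are not independent. The A384T libraries also differed from each other. Of 6 Nrp1 regions held by both A384T replicates 1 and 2, 4 ranked at least 20 points higher in replicate 2, against 22.5% of all regions. Between WT libraries no Nrp1 region differed by 20 points, with 5 regions held by both replicates 1 and 3 and 1 in each of the other pairs. The largest difference there was 17.7 points, at region 14. Of all 3614 regions of WT replicates 1 and 3, 678 were at least 20 points higher in replicate 1 and 706 in replicate 3. For A384T replicates 1 and 2 these counts were 1277 and 1347 of 5993. Differences of this size were thus common within both genotypes, and 5 Nrp1 regions are too few to set against them.

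**Figure D4:**
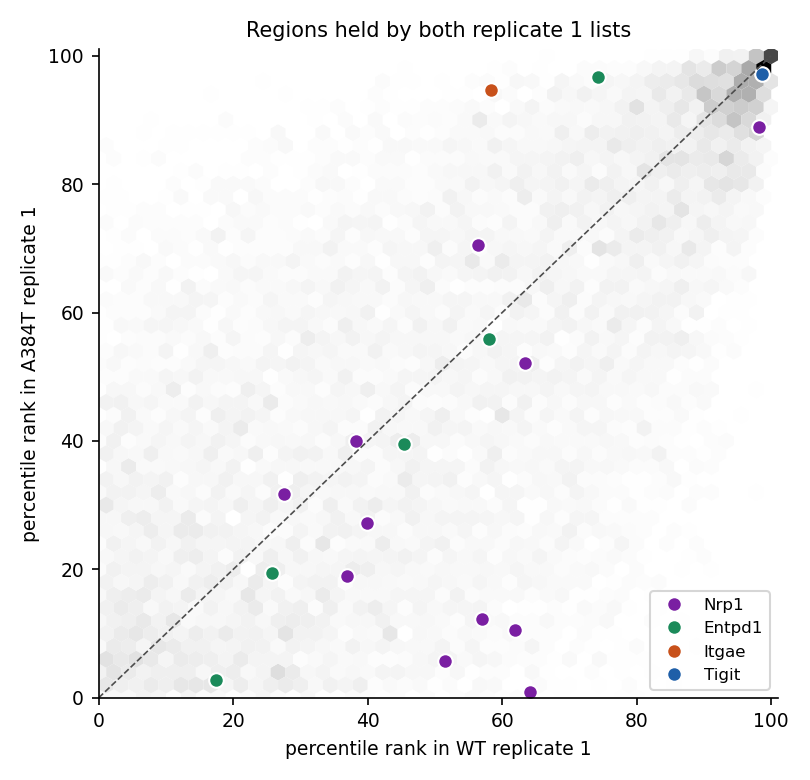
Percentile ranks among the 13567 regions that both replicate 1 lists hold are plotted for WT (x axis) and A384T (y axis), with all regions as grey density, the members as coloured points and equal ranks as a dashed line. Of the 11 Nrp1 points 8 lie below the line, Itgae region 1 and Entpd1 region 3 lie above it, and Tigit region 3 sits at the top right on it.

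Tigit region 3 (chr16:43664139-43664787) had the highest mean percentile of -log10 q of the 5 loci and overlapped between the genotypes by every measure used. Fold enrichment was 45.6, 12.6 and 22.0 for WT (replicates 1, 2 and 3) against 34.9, 38.5 and 11.7 for A384T. In WT these folds were below those of Nrp1 region 15, and in A384T above them. Counted from the highest -log10 q, it was number 196, 225 and 213 in the WT lists and number 390, 67 and 326 in the A384T lists. Among the 962 shared regions it ranked at 80.8, 78.1 and 79.5 in WT and at 76.6, 93.9 and 74.8 in A384T. The WT libraries lay within 3 points of each other and inside the A384T range. The means were 79.4 ± 1.35 and 81.8 ± 10.5 (SD, n = 3 each), a difference of 2.32 points (exact two-sided permutation p = 1.0).

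The pileup at Tigit region 3 was above the shared median in every library. Its ratio to that median was 1.24, 1.55 and 1.34 in WT and 1.32, 1.72 and 1.47 in A384T, with means of 1.378 ± 0.154 and 1.503 ± 0.204 (SD, n = 3 each; exact two-sided permutation p = 0.6). The genotypes overlapped. The region was also among the 1746 strongest peaks of every library. A384T replicate 2 carried the highest rank, and without that library the WT ranks were all above the A384T ranks. That gap was narrow: among the 962 shared regions the nearest ranks were 78.1 in WT replicate 2 and 76.6 in A384T replicate 1. With all 6 libraries 24.8% of the shared regions separated the genotypes. The share under this omission is not given here, so no difference is read from it. The summits lay within 79 bp, a spread that 72.2% of the shared regions did not exceed.

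The other 2 Tigit regions were weak and present in WT replicate 1 only, at percentiles 3.25 and 2.23 of its list. The upper edge of the Tigit window cut through a run of peaks. A region 0.242 kb beyond it (chr16:43690242-43690807) was present in all 3 WT lists, at percentiles 90.7, 37.7 and 33.2, and in A384T replicates 1 and 2, at 47.7 and 60.0. In all, 8 regions lay within 20 kb of that edge. With 20 kb added on each side, Tigit held 9, 2 and 3 peaks in WT and 6, 4 and 1 in A384T. Zbtb20 and Drd3 are the protein-coding neighbours of Tigit in the RefSeq order, and the peaks beyond the window were not assigned to a gene.

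Entpd1 had 8 regions over 257 kb, all in replicate 1 libraries and 2 of them also in A384T replicate 2. Windows of the same width held as many regions in 11.9% of cases. Region 3 (chr19:40686621-40686990) had the highest mean percentile of -log10 q. Its fold enrichment was 12.3 in WT replicate 1, 32.3 in A384T replicate 1 and 9.63 in A384T replicate 2, and its percentile 82.9, 97.5 and 58.0. The 3 summits lay within 3 bp of each other. The region was absent from the lists of WT replicates 2 and 3 and A384T replicate 3.

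Entpd1 region 3 ranked 22.4 points higher in A384T replicate 1 than in WT replicate 1 among regions of both lists. A rise of at least 20 points in this pair was seen at 22.3% of all regions. Between A384T replicates 1 and 2 the rank of Entpd1 region 3 differed by -38.2 points (replicate 2 minus replicate 1). Between WT replicate 1 and A384T replicate 2 it differed by 6.05 points (A384T minus WT). Each pair was ranked among the regions of its own 2 lists, so the sizes of these differences are not on a common scale. The other 4 Entpd1 regions of both replicate 1 lists ranked lower in A384T, with differences from -14.7 to -2.08 points. Thus 4 of 5 were higher in WT, against 50.9% of all regions. A drop of at least 20 points was seen at 0 of the 5, against 21.8% of all regions. This comparison is 1 library against 1. Region 8 (chr19:40893333-40893569) had a higher fold enrichment than region 3 in WT replicate 1 and A384T replicate 2, with 20.1 in WT replicate 1, 13.3 in A384T replicate 1 and 13.8 in A384T replicate 2. It lay 6.43 kb inside the window's end. Cc2d2b is the next protein-coding gene after Entpd1 in the RefSeq order, and region 8 was not assigned to a gene. Region 1 (chr19:40636073-40636306) was in A384T replicate 1 only, with a fold enrichment of 13.9.

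**Figure D5:**
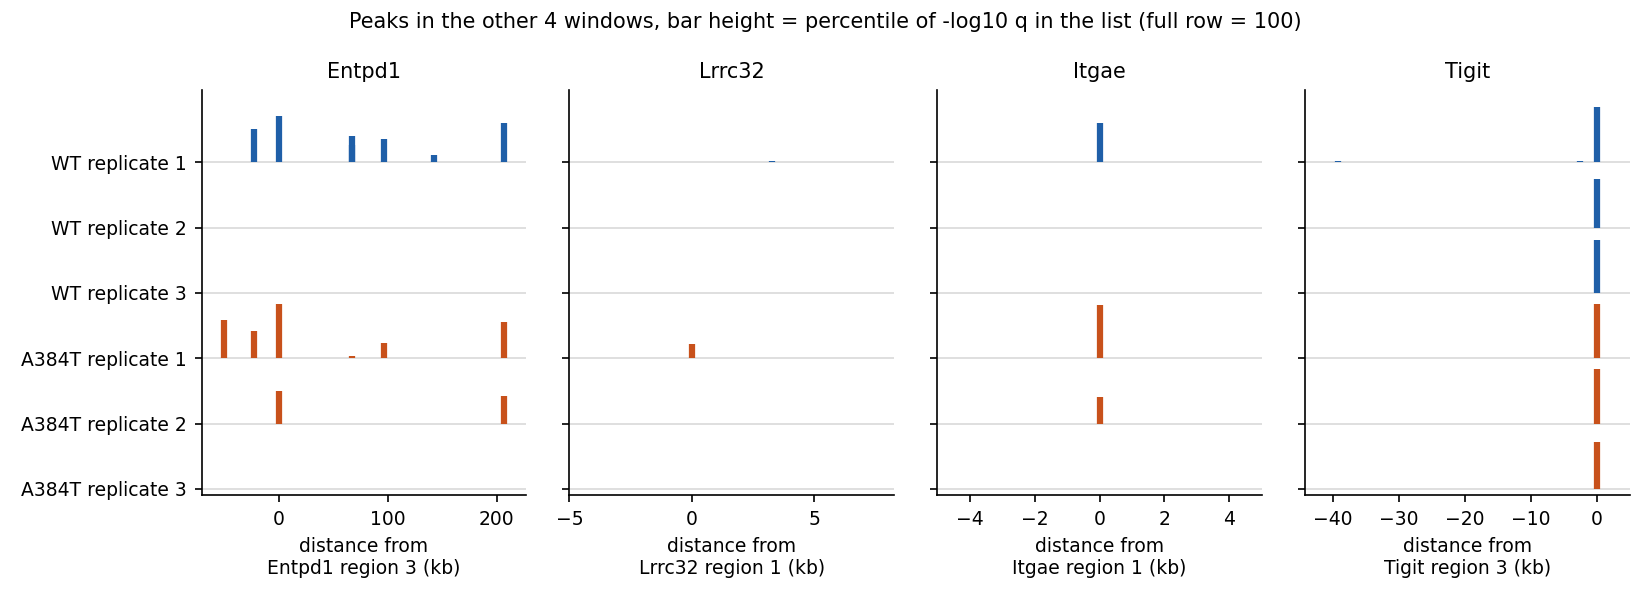
Peaks in the Entpd1, Lrrc32, Itgae and Tigit windows are drawn in 1 row per library, with distance from the named region in kb on the x axis and bar height giving the percentile of -log10 q in the list (a full row is 100). Tigit region 3 is the 1 bar found in all 6 rows, at 84.1 or above, and Lrrc32 has 1 bar in each replicate 1 row at different positions.

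Itgae had 1 region (chr11:72951719-72951955), found in WT replicate 1 and in A384T replicates 1 and 2. Its fold enrichment was 9.93, 31.8 and 9.67 in these libraries, and its percentile 71.2, 96.0 and 47.4. A384T replicate 1 stood apart from both others. Among regions of both lists, A384T replicate 1 ranked it 36.4 points above WT replicate 1. Over the 5 loci a rise of at least 20 points in this pair was seen at 2 of 18 regions, against 22.3% of all regions. For Itgae region 1, A384T replicate 2 minus A384T replicate 1 was -44.6 points. The summits lay within 16 bp. A window of this width held at least 1 region in 31.3% of cases. Just outside the Itgae window, 0.468 kb above it, a region was in A384T replicate 1 only, at percentile 66.6. Another, 18.5 kb below the window, stood at 90.6 in WT replicate 1 and at 92.2 and 64.3 in A384T replicates 1 and 2. In the lists cut to 1746 peaks, Itgae region 1 and Entpd1 region 3 were present in A384T replicate 1 only.

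Inside the Lrrc32 window no peak stood above percentile 26.4 of its list, whereas each other window had at least 1 peak above 90. Region 1 (chr7:105638280-105638547) was in A384T replicate 1 only, with a fold enrichment of 9.62 and percentile 26.4. Region 2 (chr7:105641590-105641739) was in WT replicate 1 only, with a fold enrichment of 7.53 and percentile 2.49. They lay 3.04 kb apart, so no Lrrc32 position was shared by any pair of libraries. A region 2.93 kb beyond the window (chr7:105682926-105683240) was in both replicate 1 lists and in A384T replicate 2. Its percentile was 69.8 in WT replicate 1 and 58.9 and 8.95 in A384T replicates 1 and 2, and it was not assigned to a gene. Windows of the Lrrc32 width held at least 2 regions in 15.3% of cases.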

How the data were processed

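In all, 6 FoxP3 ChIP-seq peak lists were analysed. Bowtie2, MACS2 and build mm9 are named in the submitters' processing notes. Per the file headers, peaks were called for each library with MACS 2.1.0.20140616 against its own control library, at a q-value cutoff of 1e-10, keeping 1 tag per position and scaling the larger of ChIP and control to the smaller. The deposited lists give each peak's summit pileup (a signal value), -log10 p, fold enrichment (a ratio over local control) and -log10 q, all as the authors' caller wrote them. The cutoff and the control decide which regions appear. Input libraries were not used here as samples.

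Only chromosomes 1 to 19 and the sex chromosomes were used. Percentiles are of -log10 q within a list and depend on the length of that list. Peaks overlapping by at least 1 bp were joined, and shares, ranks and pileup ratios were compared by exact two-sided permutation tests over 3 against 3 libraries, after a check on simulated data. Python 3.11.15, numpy 2.4.6, pandas 2.3.3, scipy 1.17.1 and matplotlib 3.10.9 were used.

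Regions named by rule were the highest of each locus by mean percentile, those in all 6 libraries and those in at least 2 libraries of 1 genotype only. Other named regions, the ranks between pairs of lists and the pileup ratio were chosen after values were seen. The loci, windows and lists were chosen with earlier results of these data known. Alternatives were longer lists cut to equal length, a stricter q-value, fold or overlap, wider windows, joining by summit, and leaving out libraries.

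Replicate numbers come from the sample titles. Same-numbered WT and A384T libraries deviated together over the 962 shared regions (across regions, r = 0.435, 0.123 and 0.374 for numbers 1, 2 and 3), so the numbers were also used as a block for the locus shares. The ranks and pileup ratios were not tested with the block. The genes of related pathways, and the genes nearest to each peak, were not analysed here.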

Additional observations from a re-analysis of the deposited data

How the results depend on the processing

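Over 10 results and 127 alternatives, 109 values kept the direction and side of the threshold of a tested difference, stayed within 1.5 times of a count or, for the 5 loci together, moved by less than 1 SD. No locus could pass 0.05 under any of them. Differences in percent of the list are A384T minus WT, and the cause of each change below was not tested. The Nrp1 difference of -0.00474 turned to 0.00119 with replicates 2 and 3 only, to 0.0155 when WT replicate 3 was left out and to 0.00634 when A384T replicate 1 was, within a range of -0.0199 to 0.0155 when 1 library was left out. It was -0.0355 with -log10 q of at least 20 and -0.0191 with equal lists. The Tigit difference of -0.00935 became 0 with lists of equal length, by construction since each list then holds 1 Tigit peak, and 0.00306 without WT replicate 2 (range -0.0222 to 0.00306). With windows widened by 20 kb it was -0.0310. The Lrrc32 difference of 0.000228 became 0 with equal lists and 0 with replicates 2 and 3 only, -0.000576 without WT replicate 2 or 3 and -0.00161 without A384T replicate 1 (range -0.00161 to 0.00184). It was 0.00209 with -log10 q of at least 20 and 0.00546 with widened windows. Entpd1 ranged from 0.00376 to 0.0210 and Itgae from 0.00115 to 0.00866 when 1 library was left out. With equal lists each was 0.0191, with replicates 2 and 3 only Entpd1 was 0.0150, and with widened windows Itgae was 0.0123. The difference over all 5 loci, 0.00115, became -0.0251 with -log10 q of at least 20, and ranged from -0.00879 to 0.0138 with 1 library left out. Its sign turned within 1 SD under 4 alternatives: widened windows (-0.00769) and omission of WT replicate 2 (-0.00879), A384T replicate 2 (-0.00616) or A384T replicate 3 (-0.00422). It was 0.0191 with equal lists and 0.0142 with replicates 2 and 3 only, so its direction was not stable.

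Regions in all libraries numbered 2, and 1 with equal lists or -log10 q of at least 20, and 2 to 3 with 1 library left out. Regions in at least 2 libraries of 1 genotype only ranged from 0 to 5 for A384T, with 5 without WT replicate 1, and from 0 to 1 for WT, with 1 without A384T replicate 1. Regions with ranks that did not overlap numbered 1, and 0 with equal lists or -log10 q of at least 20, and 1 to 2 with 1 library left out. The replicate block leaves each difference as it is (-0.00474 for Nrp1, 0.00978 for Entpd1, 0.000228 for Lrrc32, 0.00524 for Itgae and -0.00935 for Tigit) and gave exact p from 0.5 to 1.0 by sign flips in 3 pairs, whose smallest p is 0.25. The block changed no call. Lists of 1746 and 2050 peaks limit what could be seen in WT replicate 2 and A384T replicate 3.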
